A study of Mus musculus with 12 samples.

Results

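The comparison described here set 3 arrays of CD117+ mouse bone marrow cells treated with stem cell factor (SCF) against 3 arrays of CD117+ cells whose titles begin with U, so it used 6 of the 12 arrays in the series. Samples were placed on a side by their titles and by the treatment note in the labels, which names only the SCF samples, with a dose of 3 µg per ml for 48 h. The U-titled cells were therefore read as cells without SCF, although no label spells out the letter. All the mice were 3 months old and, according to the methods, carried a β-globin/GFP fusion transgene, so SCF-treated and U-titled cells share that genotype, and a background strain was not named. The remaining arrays were 3 of C-titled CD117+ cells, also without SCF, and 3 of CD117- cells. A separate mouse for each replicate is stated for the CD117+ and CD117- samples in general and not for the U-titled and SCF cultures in particular, so the p-values measure the spread between these samples.

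The selection was by magnetic separation on CD117, which enriches cells with surface Kit and does not isolate 1 cell type. The methods describe growth of CD117+ cells in a medium with insulin, fetal calf serum and erythropoietin, without saying whether the U-titled or the C-titled cells behind these arrays were grown in it for the same 48 h. Anything else that separated the U-titled cells from the SCF cultures, such as time in culture, cannot be told apart from SCF.

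SCF is the ligand of Kit (CD117), a receptor tyrosine kinase. Binding joins receptors in pairs, and the phosphorylated receptor feeds the RAS and ERK, phosphoinositide 3-kinase and SRC family pathways. In bone marrow the pair is known for keeping stem and progenitor cells alive and dividing, for supporting early erythroid cells, and for being required by mast cells, while most mature myeloid and lymphoid cells have lost the receptor.

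Levels are given as background-corrected, quantile-normalized log2 intensities, on which a step of 1 is a 2-fold difference, and each difference is SCF minus U-titled with its standard error. The threshold for a change was an adjusted p of 0.05 in limma, with the Benjamini-Hochberg method applied over all 11472 genes tested, and n was 3 arrays on each side throughout. The dimmest signal that counted as above background lay between 4.63 and 4.82 on this scale, and differences close to it are compressed. On each of the 6 arrays 17786 to 18081 probes were above background. The U-titled arrays correlated with each other at 0.990 to 0.991, SCF replicates 1 and 2 at 0.995, and SCF replicate 3 with the other SCF arrays at 0.987 to 0.988. SCF replicate 3 thus stood somewhat apart from its group, and list counts that rest on it are given with and without it. In bulk RNA, fewer cells of a type and less RNA per cell cannot be told apart. The number of arrays limits the precision.

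The brightest probe stood for each gene. For 50 of the 130 named genes with another detected probe, a dimmer probe had the other sign or fell on the other side of the threshold. For Egfl7 (2.61), Dmkn (2.21), Rrm2 (1.25), Umps (0.82 and 0.70), Tyms (1.02 and 0.61), Dusp6 (0.97) and Cd86 (1.19) one or more dimmer probes passed in the same direction while another did not. The same held for Tubb1 (-1.42), Npc1 (-0.98), Hdac5 (-0.85), Bbc3 (-0.85) and Cd200r3 (-0.65). For other genes no dimmer probe passed. Among those that rose, it differed by 0.12 for Pfas, 0.10 for Mrps5, 0.42 for Tomm40, 0.26 for Pfkl, 0.45 for Dnmt3b, 0.40 for Kit and -0.22 for Cd80. Among those that fell, it differed by -0.14 for Src, -0.25 for Nr1h3, -0.55 for Atp6v0a1, -0.36 for Ctsb, 0.07 for Mxd1, 0.11 for Itga6 and 0.14 for Spon2. Apart from those of Atp6v0a1, Mrps5 and Pfkl, these dimmer probes were not above background on all 6 arrays, and the calls of these genes rest on 1 probe each.

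With SCF, 1616 genes were higher (14.1% of those tested) and 1568 were lower (13.7%). Scaling to equal medians in place of quantile normalization gave 1890 and 1247. The sizes were not alike. Of the genes that were lower, 513 differed by over 2-fold and 43 by over 4-fold, while of those that were higher 203 passed 2-fold and 12 passed 4-fold. The median difference was 0.66 among the higher genes, -0.79 among the lower genes and 0.02 over all genes tested.

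**Figure D1:**
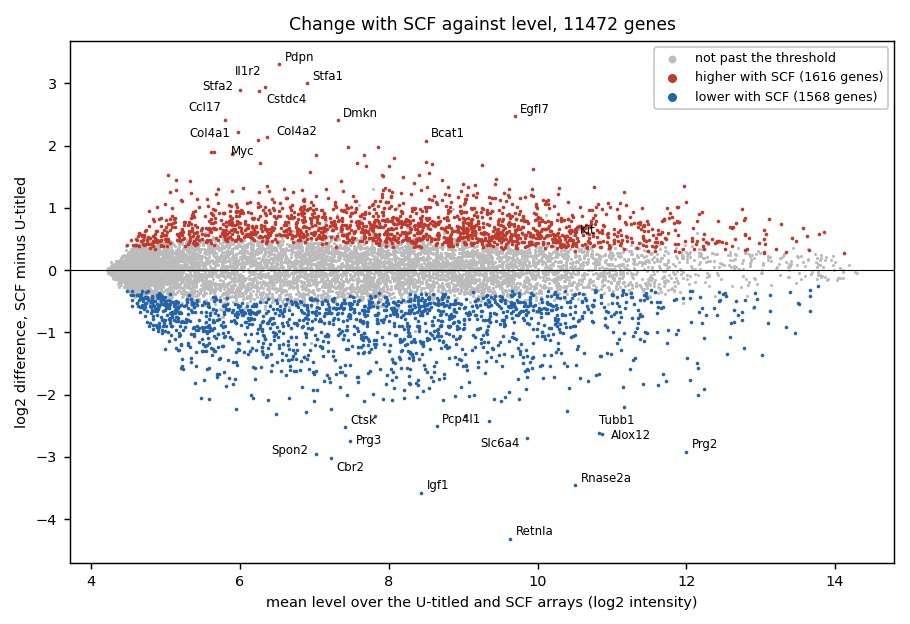
Log2 difference between SCF-treated and U-titled arrays (y axis) against the mean log2 intensity over both groups (x axis) for 11472 genes, with genes past the threshold in red (higher) and blue (lower) and the 12 largest changes each way and Kit labelled. The decreases reach -4.32 (Retnla) and the increases 3.30 (Pdpn).

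Kit itself, the receptor that the selection used, had levels of 10.39, 10.17 and 10.06 in the U-titled arrays and 10.72, 10.74 and 10.61 in the SCF arrays. Kit was detected on every array, and the SCF arrays lay above the U-titled arrays without overlap. The difference was 0.49 ± 0.15 (limma, adjusted p = 0.024), a 1.40-fold change that lost its call when U replicate 2 or 3 or SCF replicate 1 or 2 was left out (adjusted p of 0.064 to 0.082). Other markers of early cells split. Cd34, a surface sialomucin of progenitors, rose from 6.87, 7.00 and 7.08 to 7.95, 7.93 and 8.40 (difference 1.11, adjusted p = 0.00015), whereas Gata2, a transcription factor of stem and mast cells, read 11.23, 10.82 and 11.15 in the U-titled arrays and 10.98, 10.80 and 11.22 in the SCF arrays and did not pass (adjusted p = 0.81). Of 31 stem and progenitor genes tested, 5 rose and 7 fell, with a median of -0.04. Hoxa7, a homeobox factor of immature myeloid cells, had the largest increase among them (1.504). Esam (-1.90), Trim47 (-1.73) and Slamf1 (-1.66) had the largest decreases. Slamf1 encodes CD150 and Esam a junction protein, and both are used as surface markers of stem cells while also being present on megakaryocytes.

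Among the lists outside the cell cycle, the genes of ribosome production had the largest share of members that rose. Of 55 ribosome biogenesis genes tested, 43 rose and 0 fell, with a median difference of 0.69. With any 1 array left out, between 37 and 42 were higher. Nop56, a core protein of the box C/D snoRNPs that guide methylation of ribosomal RNA, read 7.61, 8.69 and 8.32 in the U-titled arrays and 9.39, 9.19 and 9.64 in the SCF arrays. All 3 SCF arrays lay above the highest U-titled array, as the rule by which most genes here were named required. The U-titled arrays themselves spread by more than 1 log2 unit, mainly through replicate 1. The difference was 1.20 ± 0.23 (adjusted p = 0.00084). Rrp1b, a nucleolar processing factor, rose by 1.23 and Utp4, part of the small subunit processome, by 1.17. The abundant nucleolar proteins nucleophosmin (Npm1) and nucleolin (Ncl) rose as well, Npm1 from 12.30, 12.43 and 12.37 to 13.21, 13.23 and 13.17 and Ncl from 8.68, 8.55 and 9.02 to 9.55, 9.70 and 9.60. The proteins of the finished cytosolic ribosome changed little in comparison: 10 of 54 rose and 0 fell, with a median of 0.16. Rpl4 was among those that rose (0.78, adjusted p = 0.0011), and Rpl3 read 13.37, 13.44 and 13.20 in the U-titled arrays and 13.37, 13.49 and 13.57 in the SCF arrays (adjusted p = 0.33). The count of 10 was 4 without U replicate 1, U replicate 2 or SCF replicate 3 and 16 without U replicate 3.

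Myc, the transcription factor best known for driving ribosome and nucleotide production, was among the 12 largest increases. Its levels were 5.44, 5.07 and 5.09 in the U-titled arrays and 6.91, 6.77 and 8.17 in the SCF arrays. The U-titled arrays were all close to the background limit, each SCF array was clearly above them, and SCF replicate 3 was the highest. The difference was 2.08 ± 0.27, or 4.23-fold (adjusted p = 4e-05). Of 12 genes of the MYC and MAX network tested, Myc alone rose (2 rose without U replicate 1), and the 3 that fell were Mxd1 (-1.07), Mxd4 (-0.99) and Mycl (-0.89). Mxd1 and Mxd4 encode repressors that compete with MYC for MAX, and Mycl a relative of MYC. Max, the shared partner, read 5.00, 5.57 and 5.35 in the U-titled arrays and 5.76, 5.60 and 5.60 in the SCF arrays (adjusted p = 0.37).

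Enzymes that make nucleotides rose with them: 22 of 35 were higher and 2 lower, with a median of 0.65. Umps, which carries out the last steps to uridine monophosphate, read 6.23, 7.04 and 6.65 in the U-titled arrays and 8.36, 7.83 and 8.03 in the SCF arrays. The SCF arrays were above all U-titled arrays (difference 1.43 ± 0.23, adjusted p = 0.00024). Pfas, of the purine pathway, rose by 1.28, Rrm2, the small subunit of ribonucleotide reductase, by 1.22, and Cad, the first enzyme of pyrimidine synthesis, by 0.95. The 2 that fell break nucleotides down, namely Xdh, xanthine dehydrogenase (-0.86), and the pyrimidine nucleotidase Nt5c3 (-0.75). In serine, one-carbon and polyamine metabolism 12 of 23 rose and 1 fell (0 without U replicate 1 or any of the SCF arrays). Phgdh, the first enzyme of serine synthesis, rose from 7.21, 8.43 and 7.64 to 9.31, 9.27 and 9.40. The difference was 1.57 ± 0.23 (adjusted p = 9.8e-05). Shmt1, which passes carbon from serine to folate, rose by 1.33, and Ass1, argininosuccinate synthase, by 1.31. Bcat1, a branched-chain amino acid transaminase of the cytosol, was among the 12 largest increases of all genes. It read 7.59, 7.41 and 7.37 in the U-titled arrays and 9.63, 9.41 and 9.57 in the SCF arrays, and the groups lay about 2 log2 units apart (difference 2.08 ± 0.17, adjusted p = 5.3e-07).

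Because these lists moved together, the promoters of their members were searched for CACGTG, the palindromic E-box that MYC and MAX bind, as do other factors such as USF and TFEB. Windows ran from 250 bases before to 50 after each start site (RefSeq, GRCm38.p6), and as a palindrome the motif reads the same on both strands. It was present in 7.24% of all 27025 promoters, in 10.2% of those of the genes tested, in 10 of 47 ribosome biogenesis promoters (21.3%) and in 6 of 32 nucleotide synthesis promoters (18.8%). Among the members of these lists that changed it was in 7 of 39 (17.9%) and 5 of 21 (23.8%). Shares of like size stood in other lists, such as tRNA synthetases (22.7%), cholesterol genes (21.1%) and myeloid transcription factors (24%). It was also in 15 of 50 lysosome and autophagy promoters (30%), a list in which most calls were lower, as described further on. Over all genes, 11.2% of the promoters of higher genes and 8.54% of those of lower genes held it. The stretches below, with the E-box in capitals, come from called members of these 3 lists, 4 that rose and 2 that fell, and are shown so that the element can be read in its surroundings. A match is a string of letters and no evidence of binding.
Nop2 (chr6:125131803-125131848, + strand, difference 0.76): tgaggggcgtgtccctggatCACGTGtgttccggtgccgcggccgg
Imp4 (chr1:34439688-34439733, + strand, difference 0.55): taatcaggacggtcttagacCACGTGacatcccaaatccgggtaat
Tyms (chr5:30073661-30073706, - strand, difference 1.17): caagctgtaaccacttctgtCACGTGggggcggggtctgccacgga
Impdh2 (chr9:108560306-108560351, + strand, difference 0.81): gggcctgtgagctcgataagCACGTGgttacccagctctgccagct
Ctsl (chr13:64370731-64370770, - strand, difference -1.27): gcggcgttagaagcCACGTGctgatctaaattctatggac
Ctsd (chr7:142387900-142387945, - strand, difference -0.69): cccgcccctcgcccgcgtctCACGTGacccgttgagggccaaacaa
Nop2 methylates ribosomal RNA, Imp4 belongs to the small subunit processome, Tyms makes thymidylate and Impdh2 is the rate-limiting enzyme of guanine nucleotide synthesis. Ctsl and Ctsd are lysosomal proteases. Tyms was the tightest of the 6, with 9.12, 9.32 and 9.30 in the U-titled arrays and 10.38, 10.43 and 10.46 in the SCF arrays (adjusted p = 1.9e-06). Ctsd lost its call without U replicate 2 or SCF replicate 3 (adjusted p of 0.052 and 0.072).

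Further steps of gene expression rose in part. Of 52 splicing genes, 28 rose and 0 fell (median 0.51), among them the small nuclear ribonucleoproteins Snrpf (1.04) and Snrpg (0.99). Of 43 genes of nuclear pores and transport, 21 rose, among them the importin Kpna3 (0.96) and the pore protein Nup43 (0.96), and 1 fell, the importin Ipo11 (-1.60). Of 44 translation factors, 23 rose and 0 fell, or 14 without SCF replicate 3. Eif4b, which helps unwind messenger RNA, read 4.71, 5.68 and 5.73 in the U-titled arrays and 6.81, 6.42 and 6.84 in the SCF arrays. Its U-titled arrays were uneven, with replicate 1 lowest, yet all lay below the SCF arrays (difference 1.32 ± 0.26, adjusted p = 0.0012). Eif5a, an elongation factor that carries the polyamine-derived residue hypusine, rose by 1.00. Of 30 aminoacyl-tRNA synthetase genes, 7 rose, among them Kars for lysine (0.84), and 4 did so without SCF replicate 3.

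In the heat shock and chaperonin list 18 of 37 rose and 2 fell (1 without U replicate 1, U replicate 2 or SCF replicate 3), with the mitochondrial pair Hspe1 (1.15) and Hspd1 (0.97) and the cytosolic Hsp90aa1 (0.98) highest, and Dnajb4 lower (-1.01). Of 42 chaperones and folding factors of the endoplasmic reticulum 3 rose and 3 fell, shares below those over all genes, and 1 rose without U replicate 1 or SCF replicate 2. Of 36 proteasome genes, 14 rose and 0 fell, though leaving out U replicate 1, U replicate 3, SCF replicate 2 or SCF replicate 3 left 6, 9, 7 and 9. The assembly chaperone Psmg1 rose most (0.81).

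Mitochondrial genes differed by function. Of 72 mitochondrial ribosomal protein genes 36 rose and 0 fell (median 0.44), with Mrps5 (0.99), Mrps2 (0.81) and Mrpl18 (0.76) leading. Without U replicate 1, U replicate 2 and SCF replicate 3, 23, 21 and 26 rose. In the list of the TCA cycle and mitochondrial protein import 18 of 42 rose and 0 fell. Tomm40, the pore of the outer membrane import machinery, read 7.08, 6.87 and 6.82 in the U-titled arrays and 7.85, 7.71 and 8.79 in the SCF arrays and was highest in SCF replicate 3 (difference 1.20 ± 0.22, adjusted p = 0.00075). The subunits of the respiratory chain and ATP synthase had a median of 0.24, and 5 of 67 passed the test, below the 14.1% over all genes, with 2 without U replicate 1 or U replicate 2 and 19 without U replicate 3. Glycolysis was mixed, with 9 of 31 higher and 4 lower. Pfkl, a phosphofructokinase, rose by 0.69 and the pyruvate dehydrogenase kinase Pdk1 by 0.75. The glucose transporter Slc2a3 fell from 12.10, 12.03 and 11.94 to 10.80, 10.67 and 10.38 (difference -1.41, adjusted p = 9.1e-07).

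Genes that divide cells rose alongside and are given only as context: 36 of 46 DNA replication genes and 32 of 40 mitosis genes were higher and 0 of either lower. In G1 control 7 of 30 rose (4 without U replicate 2, 3 without SCF replicate 2) and 6 fell, with Ccnd1, cyclin D1, at 8.87, 9.19 and 9.02 in the U-titled and 10.16, 10.24 and 10.02 in the SCF arrays (difference 1.12 ± 0.14, adjusted p = 2.7e-05). Cdk4, its kinase, rose by 0.96, and Gadd45a, a growth arrest gene, fell by 1.06.

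**Figure D2:**
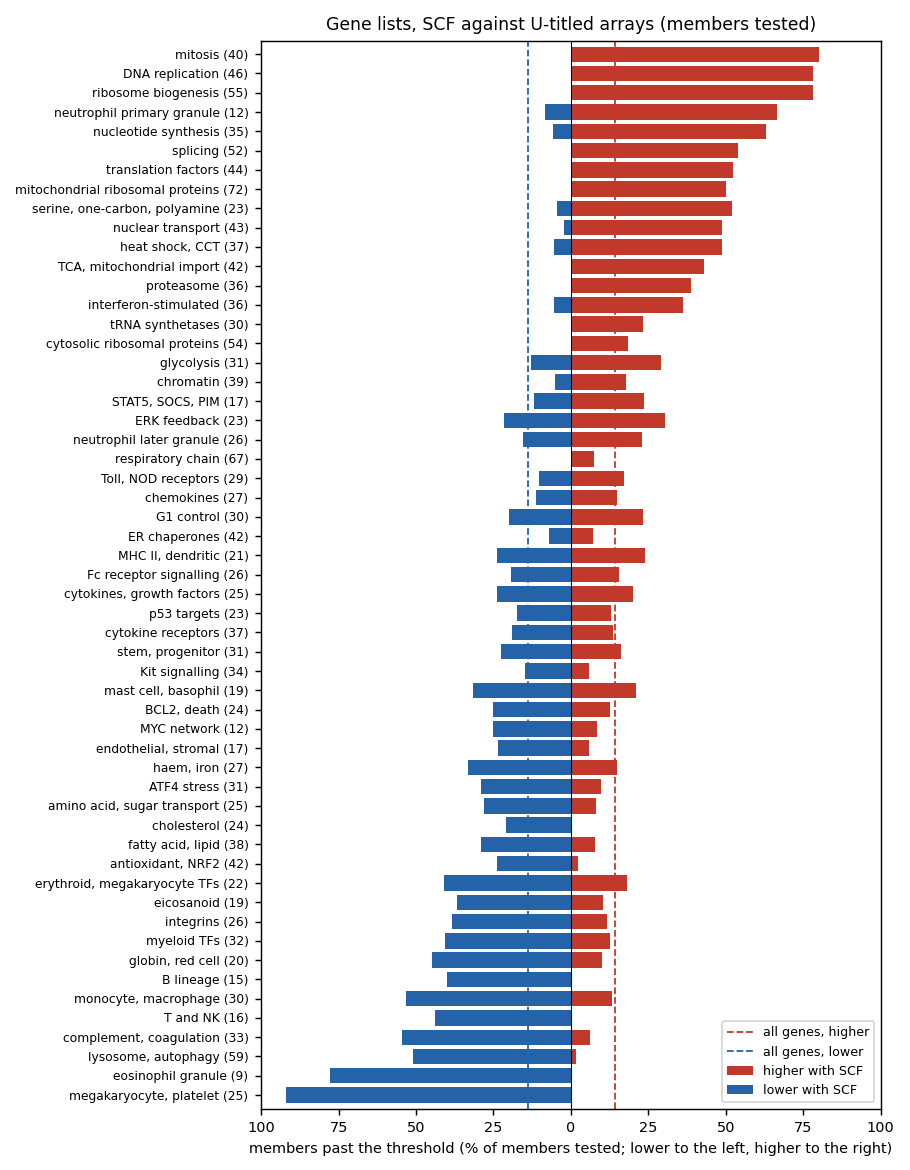
Share of the tested members of 55 gene lists (y axis, number tested in brackets) that were higher (red, right) or lower (blue, left) in SCF-treated than in U-titled arrays, as a percentage on the x axis, with dashed lines at the shares over all genes (14.1% and 13.7%). Mitosis, DNA replication and ribosome biogenesis lie at the top and the megakaryocyte and eosinophil lists at the bottom.

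Of 34 genes of Kit and its signalling partners 2 rose and 5 fell, which is 5.88% and 14.7% beside 14.1% and 13.7% over all genes. The 2 that rose were Kit and the phosphatase gene Ptpn6, and 1 rose without U replicate 2, U replicate 3, SCF replicate 1 or SCF replicate 2. Src, the kinase, read 9.44, 8.61 and 9.55 in the U-titled arrays and 7.52, 7.41 and 7.18 in the SCF arrays. All 3 SCF arrays were lower by at least 1 log2 unit (-1.83 ± 0.37, adjusted p = 0.0013). The adaptor Gab1 fell by 1.04 and Jak2, the kinase of many cytokine receptors, by 0.79. Genes that ERK activity is known to induce moved both ways, with 7 of 23 higher and 5 lower. Dusp6, the phosphatase that switches ERK off, rose from 9.67, 9.56 and 9.88 to 10.82, 11.02 and 10.37 (difference 1.04 ± 0.18, adjusted p = 0.00033). Etv4, an ETS factor downstream of ERK, was not detected on any U-titled array and was detected on all 3 SCF arrays, at least 1.52-fold higher (adjusted p = 4.3e-05). In the other direction Phlda1 read 9.22, 8.99 and 9.59 in the U-titled arrays and 7.70, 7.81 and 7.01 in the SCF arrays (difference -1.76, adjusted p = 0.00063) and the phosphatase Dusp4 fell by 1.19. Without SCF replicate 3 the 5 that fell were 3. Of the STAT5, SOCS and PIM list 4 of 17 rose (2 without SCF replicate 2) and 2 fell (1 without U replicate 1, U replicate 2, SCF replicate 2 or SCF replicate 3). Cish, a commonly used readout of STAT5, read 9.64, 9.52 and 9.17 in the U-titled arrays and 9.60, 9.53 and 9.46 in the SCF arrays. Pim1, another, read 7.12, 7.04 and 6.56 in the U-titled arrays and 6.64, 6.49 and 6.72 in the SCF arrays. Both overlapped between the groups and did not pass (adjusted p of 0.81 and 0.34). Bcl2l1, which encodes the survival protein BCL-XL and is another STAT5 target, fell from 8.80, 8.36 and 8.03 to 7.44, 7.11 and 7.06 (difference -1.19, adjusted p = 0.0039), while its dimmer probes differed by -0.23 and -0.33 and did not pass.

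The 12 largest increases held several genes of the cell surface and of secretion. Pdpn, podoplanin, a mucin-like glycoprotein that binds the platelet receptor CLEC-2, had the largest. It read 5.23, 4.94 and 4.46 in the U-titled arrays and 8.86, 9.26 and 6.41 in the SCF arrays. SCF replicate 3 was well below the other SCF arrays and still above every U-titled array, 1 of which did not detect the gene (difference 3.30 ± 0.47, 9.87-fold, adjusted p = 7.9e-05). Il1r2, the decoy receptor that traps interleukin-1, rose from 4.65, 5.13 and 4.83 to 7.76, 7.96 and 7.69. Its SCF arrays lay within 0.3 of each other (difference 2.93 ± 0.17, adjusted p = 3e-08). Il1r2 was above background on 2 of the 3 U-titled arrays, so the size of its difference is not well measured. Ccl17, a chemokine for cells with CCR4, was detected on 1 U-titled array and all 3 SCF arrays, at 4.42, 4.48 and 4.86 in the U-titled arrays and 6.71, 7.25 and 7.03 in the SCF arrays. The fitted difference was 2.41 ± 0.16 (adjusted p = 1.3e-07), and since the gene was not above background on the other U-titled arrays, its size is not well measured.

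The 2 chains of type IV collagen, a sheet-forming collagen of basement membranes whose genes lie head to head, rose by nearly the same amount. Col4a1 went from 4.71, 4.93 and 4.93 to 6.87, 7.08 and 7.29, and Col4a2 from 5.43, 5.24 and 5.21 to 7.28, 7.30 and 7.73. The differences were 2.22 and 2.14 (adjusted p of 3.6e-07 and 4.8e-07). Egfl7, a secreted factor best known from endothelium that hosts miR-126, rose from 8.64, 8.25 and 8.47 to 10.85, 10.83 and 11.10 (difference 2.47 ± 0.17, adjusted p = 1.3e-07). Defining stromal and endothelial genes did not accompany these: Col1a1 was detected on none of the 6 arrays, and Cdh5 and Cxcl12 on 0 of 3 U-titled and 1 of 3 SCF arrays. Emcn, endomucin, was the 1 endothelial gene of 17 that rose, undetected in the U-titled arrays and at least 1.27-fold higher with SCF, and 4 fell. Dmkn, dermokine, rose by 2.41. Gpr84, a receptor for medium-chain fatty acids on myeloid cells, went from 6.73, 6.51 and 6.16 to 8.45, 8.29 and 8.56 (adjusted p = 5.2e-06). It is 1 of the 67 named genes, spread over the paragraphs, that were chosen after their values were seen.

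**Figure D3:**
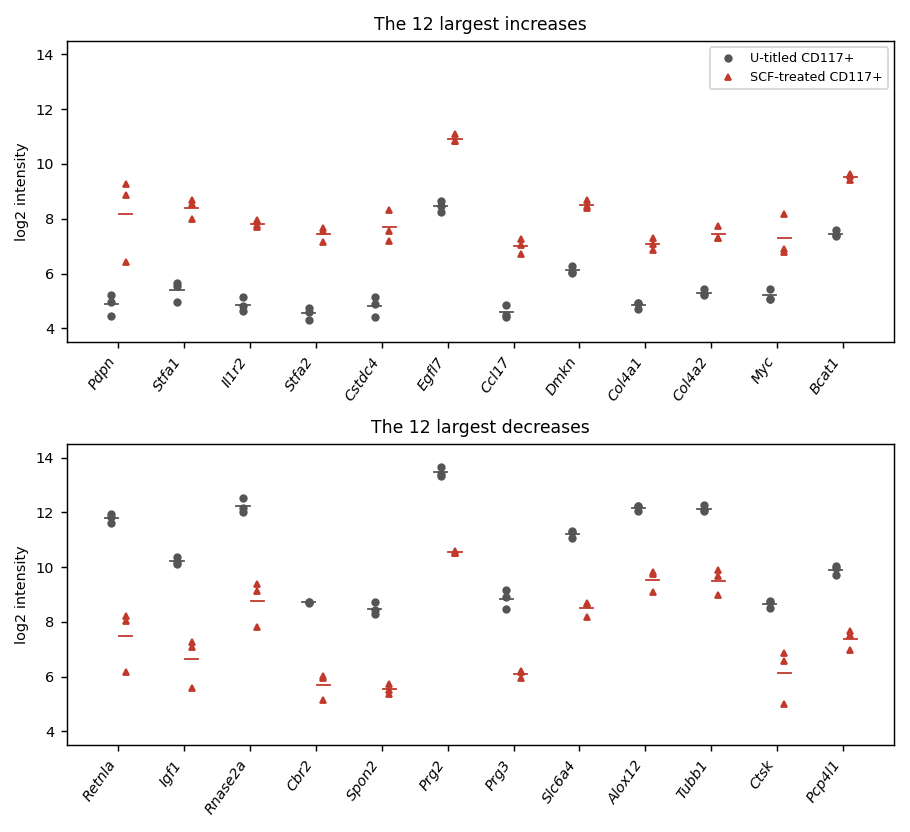
Log2 intensity (y axis) of the 12 largest increases (upper panel) and 12 largest decreases (lower panel) in each U-titled (grey circles) and SCF-treated (red triangles) array, with bars at the group means. Only genes whose groups do not overlap were eligible. In 1 SCF array, replicate 3, levels lie well below those of the other SCF arrays for Pdpn, Retnla, Igf1, Rnase2a and Ctsk.

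Of 12 genes in the list of the primary granules, which promyelocytes make, 8 rose and 1 fell, with a median of 0.67. The list also holds progenitor genes that do not encode granule proteins, Ms4a3 and Igfbp4 among them. Ms4a3, a membrane protein of granulocyte and monocyte progenitors, read 10.10, 10.08 and 10.11 in the U-titled arrays and 11.48, 11.46 and 11.34 in the SCF arrays. The groups were over 1 log2 unit apart (difference 1.33 ± 0.12, adjusted p = 9.1e-07). Prtn3, proteinase 3, rose by 0.97, Ctsg, cathepsin G, by 0.81, and Igfbp4, which is not a granule protein but marks these progenitors, by 1.34. Lyz2, lysozyme, fell by 0.42, a call that was lost without U replicate 1, U replicate 2 or SCF replicate 3. The summed linear intensity of the list was 49665 to 52644 in the U-titled and 60188 to 61654 in the SCF arrays.

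Later granule and neutrophil genes split, with 6 of 26 higher, 4 lower and a median of 0.17. The stefins, cytosolic inhibitors of cysteine proteases, rose most. Stfa1 went from 5.55, 4.96 and 5.67 to 8.53, 8.68 and 7.98, Stfa2 from 4.61, 4.31 and 4.76 to 7.55, 7.65 and 7.15 and Cstdc4, another member of the family, from 4.88, 4.41 and 5.13 to 7.55, 8.33 and 7.20. Their differences were 3.00, 2.89 and 2.88 (adjusted p of 1.3e-07, 7.5e-07 and 7.1e-07). Stfa2 was above background on 1 U-titled array and Cstdc4 on 2, so the sizes of these differences are not well measured. The stefin genes are near copies of each other and a probe may read several, so the 3 are not independent. Fpr2, a formyl peptide receptor, rose by 1.06. Against these, Retnlg, a resistin-like secreted protein of neutrophils, read 10.58, 10.17 and 10.92 in the U-titled arrays and 8.46, 8.43 and 8.47 in the SCF arrays. Camp, the cathelicidin of secondary granules, read 11.21, 11.20 and 11.47 in the U-titled arrays and 10.73, 10.74 and 10.38 in the SCF arrays. Both were lower in every SCF array (-2.10, adjusted p = 1.4e-05, and -0.68, adjusted p = 0.0013). S100a8, an abundant cytosolic protein of neutrophils, read 13.69, 13.66 and 13.80 in the U-titled arrays and 13.66, 13.69 and 13.60 in the SCF arrays (adjusted p = 0.77). The summed linear intensity of this list was 45107 to 48364 in the U-titled and 39827 to 45190 in the SCF arrays.

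The eosinophil list had the lowest median of all lists. Of 9 genes tested 7 fell and 0 rose, with a median of -1.72, and 6 or 7 fell when any 1 array was left out. Prg2, major basic protein, the main crystal-forming protein of the granule, read 13.40, 13.35 and 13.65 in the U-titled arrays and 10.52, 10.50 and 10.60 in the SCF arrays. Within each group the arrays agreed to within 0.3, and the groups were nearly 3 log2 units apart (difference -2.92 ± 0.10, 7.58-fold, adjusted p = 8.6e-12). Prg3, its relative, went from 8.93, 8.46 and 9.18 to 6.17, 5.95 and 6.21 (difference -2.74, adjusted p = 6.8e-07). Epx, eosinophil peroxidase, went from 7.94, 7.50 and 8.06 to 6.23, 5.99 and 6.41 (difference -1.63, adjusted p = 1.7e-05). Among the eosinophil-associated ribonucleases, Ear6 fell by 2.07 and Rnase2a fell by 3.46. These ribonuclease genes are near copies too, and Rnase2a behaved unlike Prg2 across arrays: it was lowest in SCF replicate 3, at 12.03, 12.52 and 12.15 in the U-titled arrays and 9.14, 9.38 and 7.81 in the SCF arrays. The summed intensity of the list was 18076 to 21165 in the U-titled arrays and 3014 to 3285 in the SCF arrays. Siglecf, a defining surface marker of eosinophils, was not among the genes tested.

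Of the megakaryocyte and platelet genes 23 of 25 were lower and 0 higher, with a median of -1.44, and between 20 and 22 were lower with any 1 array left out. Tubb1, the β-tubulin of platelet marginal bands, read 12.06, 12.08 and 12.26 in the U-titled arrays and 9.66, 9.90 and 8.97 in the SCF arrays. Every SCF array was more than 2 log2 units below the lowest U-titled array (difference -2.62 ± 0.30, adjusted p = 9.6e-06). Gp6, the collagen receptor, went from 9.70, 9.91 and 10.10 to 7.78, 8.03 and 7.81 (-2.03), Clec1b, which encodes the CLEC-2 receptor for podoplanin, from 9.15, 8.75 and 9.06 to 6.75, 6.93 and 6.25 (-2.34), and Vwf, von Willebrand factor, from 13.26, 13.25 and 13.09 to 11.26, 11.15 and 11.44 (-1.92). Adjusted p values were 1.4e-05, 1e-05 and 8.4e-05. Gp9, of the receptor for von Willebrand factor, fell by 1.78 and Itga2b, the platelet integrin chain CD41, by 1.498. Pf4, platelet factor 4, had the smallest difference of the defining markers. It read 13.06, 13.16 and 13.38 in the U-titled arrays and 12.67, 12.56 and 12.53 in the SCF arrays, which did not overlap but did not pass (difference -0.61, adjusted p = 0.11, and 0.0029 in a fit of the 6 arrays alone). Outside the list, Alox12, platelet 12-lipoxygenase, read 12.06, 12.24 and 12.24 in the U-titled arrays and 9.81, 9.75 and 9.08 in the SCF arrays (difference -2.63 ± 0.29, adjusted p = 8.8e-06). Slc6a4, the serotonin transporter, read 11.27, 11.31 and 11.06 in the U-titled arrays and 8.70, 8.64 and 8.20 in the SCF arrays (difference -2.70 ± 0.30, adjusted p = 7.8e-06). On its brightest probe Myl9, a smooth muscle and platelet myosin light chain, was detected on all 3 U-titled and none of the SCF arrays. That probe was at least 3.91-fold lower (adjusted p = 2.5e-05). A dimmer probe was detected on 3 U-titled and 2 SCF arrays and differed by -1.16 (adjusted p = 0.0059). The summed intensity of the list was 84692 to 86467 in the U-titled and 33574 to 34927 in the SCF arrays.

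Macrophage genes fell too, with more spread. Of 30 monocyte and macrophage genes 16 fell and 4 rose, with a median of -0.69. Retnla, the resistin-like protein FIZZ1 that interleukin-4 induces in macrophages, had the largest change of all 11472 genes. It read 11.94, 11.61 and 11.83 in the U-titled arrays and 8.20, 8.03 and 6.19 in the SCF arrays. The U-titled arrays agreed to within 0.4, the SCF arrays were at least 3.4 lower, and SCF replicate 3 was 2 log2 units below the other 2 (difference -4.32 ± 0.35, 19.9-fold, adjusted p = 5.5e-07). Igf1, insulin-like growth factor 1, a product of the same kind of macrophage, had a similar shape at 10.19, 10.36 and 10.13 in the U-titled arrays and 7.10, 7.25 and 5.59 in the SCF arrays (difference -3.58 ± 0.30, adjusted p = 6.1e-07). Apoe, the lipoprotein that carries lipid out of macrophages, went from 10.62, 10.81 and 10.24 to 8.43, 8.22 and 7.74 (-2.43, adjusted p = 3.1e-07). C1qb, a chain of complement C1q, fell by 1.53, the lipid receptor Trem2 by 1.39, the mannose receptor Mrc1 by 1.34, the folate receptor Folr2 by 1.52 and arginase 1 (Arg1) by 1.09. Cbr2, a carbonyl reductase that also appears among the 12 largest decreases, went from 8.74, 8.70 and 8.74 to 5.94, 6.04 and 5.14 (-3.02, adjusted p = 1.3e-07).

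In all 16 of the macrophage genes that fell, SCF replicate 3 was the lowest of the SCF arrays. It was the lowest in 921 of all 1568 genes that fell. Without it 13 of the 30 were lower and 4 higher, with a median of -0.47. The summed intensity of the list ran from 48564 to 60809 in the U-titled arrays and from 19550 to 40584 in the SCF arrays. Adgre1, which encodes F4/80, read 9.67, 9.91 and 9.62 in the U-titled arrays and 9.49, 9.75 and 8.71 in the SCF arrays and did not pass (adjusted p = 0.24), while Csf1r, the receptor for M-CSF, fell by 0.87 (adjusted p = 0.0076). Cd14, the lipopolysaccharide co-receptor, rose from 9.08, 9.02 and 8.70 to 10.32, 10.34 and 9.84 (1.23, adjusted p = 6.4e-05), and the inhibitory lectin Cd33 from 6.18, 6.12 and 6.17 to 7.78, 7.86 and 7.52 (1.57, adjusted p = 3.2e-05).

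Myeloid transcription factors fell with them, 13 of 32 against 4 that rose. SCF replicate 3 was again the lowest SCF array for all 13, and without it 10 fell. Nr1h3, the oxysterol receptor LXRα, read 8.08, 8.18 and 7.80 in the U-titled arrays and 5.91, 6.01 and 5.31 in the SCF arrays and had the largest fall (-2.28 ± 0.21, adjusted p = 1.9e-06). Pparg, the lipid-sensing nuclear receptor PPARγ, went from 8.01, 8.28 and 7.75 to 6.28, 6.59 and 5.84 (-1.78, adjusted p = 6.6e-06), and Klf6 fell by 1.90. Id1, an inhibitor of basic helix-loop-helix factors, rose by 1.00. In the fatty acid and lipid list 11 of 38 fell and 3 rose. Lpl, lipoprotein lipase, went from 10.21, 10.76 and 10.41 to 8.77, 8.91 and 7.47 (-2.08, adjusted p = 9e-05), the lipid droplet protein Plin2 fell by 1.10 and the scavenger receptor Cd36 by 0.89. In the cholesterol list 5 of 24 fell and 0 rose, or 3 without U replicate 1 or SCF replicate 3. The ones that fell included the transporters Npc1 (-0.90) and Stard4 (-1.01).

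Lysosome and autophagy genes were lower in 30 of 59 cases and higher in 1 (2 without U replicate 2), with a median of -0.40. The count was 19 without U replicate 1, 19 without U replicate 2 and 18 without SCF replicate 3, while the median was -0.34 without the last. Ctsk, cathepsin K, read 8.72, 8.78 and 8.52 in the U-titled arrays and 6.87, 6.57 and 4.99 in the SCF arrays, again lowest in SCF replicate 3 (difference -2.53 ± 0.33, adjusted p = 3.3e-05). Lgmn, legumain, fell by 1.49, Atp6v0a1, a subunit of the proton pump, by 1.29, and Ctsb, cathepsin B, by 0.86. Ctsg was the 1 member that rose, and it is a primary granule protease rather than a lysosomal enzyme of macrophages. Complement, coagulation and serpin genes fell in 18 of 33 cases and rose in 2 (1 without U replicate 1, U replicate 2 or SCF replicate 2), with a median of -0.59, and 15 fell without SCF replicate 3. This list shares Vwf with the platelet list and C1qa, C1qb and C1qc with the macrophage list. The part that macrophages or platelets had in the lipid, lysosome and complement lists was not tested. F5, coagulation factor V, went from 9.79, 10.22 and 10.27 to 8.12, 8.27 and 7.82 (-2.02, adjusted p = 2.5e-06), and Timp2, an inhibitor of metalloproteinases, from 9.40, 9.51 and 9.37 to 7.83, 7.96 and 6.68 (-1.94, adjusted p = 8.1e-05). Serpina3f, a serine protease inhibitor, rose by 1.09.

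**Figure D4:**
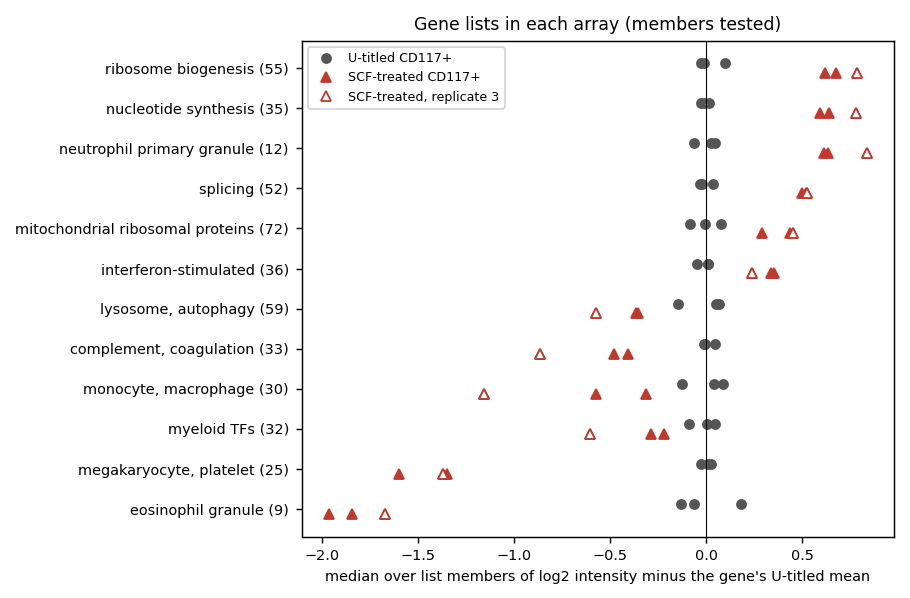
Median over the members of 12 gene lists (y axis, members tested in brackets) of the log2 intensity in each array minus that gene's U-titled mean (x axis), for U-titled (grey) and SCF-treated (red) arrays, with SCF replicate 3 as open triangles. The 12 were picked from the 57 lists among those that moved, and their groups do not overlap. In other lists, such as the later neutrophil granule and the mast cell and basophil lists, the groups do overlap. SCF replicate 3 is furthest from the U-titled arrays for the macrophage, myeloid factor, lysosome and complement lists but not for the megakaryocyte and eosinophil lists.

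Red cell genes fell in 9 of 20 cases and rose in 2. Hba-a1, an α-globin, read 12.84, 12.79 and 13.17 in the U-titled arrays and 10.91, 11.24 and 11.37 in the SCF arrays (difference -1.76 ± 0.14, adjusted p = 4.8e-07), and Hbb-b1, a β-globin, went from 13.30, 13.43 and 13.49 to 11.71, 12.33 and 12.43 (-1.25, adjusted p = 1.3e-05). The globin genes are near copies within each cluster, so these probes may read several of them. Slc4a1, the band 3 anion exchanger of the red cell membrane, fell by 1.52 and Sptb, β-spectrin, by 1.57. The carbonic anhydrase Car1, abundant in early erythroid cells, went the other way, from 7.05, 7.35 and 7.03 to 8.61, 8.54 and 8.85 (1.53, adjusted p = 1.1e-06). The summed linear intensity of the red cell list was 21398 to 24821 in the U-titled and 7621 to 10906 in the SCF arrays. In haem and iron metabolism 9 of 27 fell and 4 rose, of which 2 did so without U replicate 2, U replicate 3, SCF replicate 1 or SCF replicate 3 and 1 without SCF replicate 2. Alas2, the erythroid first enzyme of haem synthesis, went from 8.36, 8.20 and 8.88 to 6.66, 7.09 and 6.29 (-1.80, adjusted p = 1.6e-05), and Alas1, its form in other cells, rose from 11.55, 11.66 and 11.37 to 12.21, 12.10 and 12.19 (0.64, adjusted p = 0.00076). Slc40a1, the iron exporter ferroportin, fell by 1.73, and Hmox1, haem oxygenase, by 1.68. Both were lowest in SCF replicate 3, and without it their differences were -1.32 and -1.24. Of the transcription factors of this branch 9 of 22 fell and 4 rose (2 without U replicate 1). Gata1 read 8.27, 8.02 and 8.22 in the U-titled arrays and 6.89, 6.57 and 7.78 in the SCF arrays (-1.09, adjusted p = 0.0027), Gfi1b fell by 0.89, and Bcl11a, a repressor of fetal globin genes that B cells and progenitors also express, rose from 7.25, 7.14 and 7.46 to 8.51, 8.36 and 8.93 (1.32, adjusted p = 0.00014). Epor, the erythropoietin receptor, went from 7.30, 7.26 and 7.32 to 6.01, 6.16 and 6.48 (-1.08, adjusted p = 0.00013).

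Lymphoid genes were lower or did not pass, with 6 of 15 B lineage genes and 7 of 16 T and NK genes lower and 0 higher in either. The summed linear intensities were 13593 to 16063 and 5135 to 6762 for the B list, and 1685 to 2150 and 1452 to 1572 for the T and NK list, in the U-titled and SCF arrays. Most of the B sum in each array came from Ighm, the immunoglobulin M heavy chain. Ighm went from 13.73, 13.80 and 13.55 to 12.48, 12.44 and 12.07 (-1.37, adjusted p = 5.8e-07). Cd3e, a chain of the T cell receptor complex, went from 7.20, 6.98 and 7.57 to 6.15, 6.13 and 5.84 (-1.21, adjusted p = 0.00029). Genes of antigen presentation moved both ways, with 5 of 21 higher and 5 lower, or 3 and 5 without SCF replicate 3. The costimulatory ligands Cd80 (1.21) and Cd86 (1.05) rose. H2-Aa, an MHC class II chain, read 6.95, 6.61 and 6.68 in the U-titled arrays and 6.67, 6.87 and 6.65 in the SCF arrays (adjusted p = 0.97). Siglech, a marker of plasmacytoid dendritic cells, and Batf3, a factor of conventional ones, fell by 1.13 and 1.20.

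Of 19 mast cell and basophil genes 4 rose (2 without U replicate 2 or SCF replicate 1) and 6 fell (3 without SCF replicate 1). The summed linear intensity was 26411 to 30748 in the U-titled and 18485 to 24960 in the SCF arrays. The list's largest fall was that of Itga2b, the platelet integrin chain given above. It read 13.16, 12.76 and 12.78 in the U-titled arrays and 11.42, 11.09 and 11.70 in the SCF arrays. Part of the fall in the sum is thus that of Itga2b, and the sum without it was not taken. Cma1, mast cell chymase, read 4.68, 4.84 and 4.56 in the U-titled arrays and 6.24, 6.44 and 7.10 in the SCF arrays. It was close to the background limit in the U-titled arrays and above it in every SCF array (difference 1.90 ± 0.18, adjusted p = 2e-06). Cpa3, mast cell carboxypeptidase, read 11.70, 11.42 and 11.38 in the U-titled arrays and 11.14, 11.06 and 11.57 in the SCF arrays. Mcpt8, a basophil protease, read 10.30, 10.07 and 10.45 in the U-titled arrays and 9.96, 9.93 and 10.82 in the SCF arrays. Both overlapped between the groups and did not pass (adjusted p of 0.25 and 0.91). Fcer1a, the IgE-binding chain of the high-affinity receptor, fell from 10.59, 10.57 and 10.53 to 9.43, 9.55 and 9.72 (-0.998, adjusted p = 4.1e-05), and Cd200r3, a receptor of basophils and mast cells, by 1.29.

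Genes that interferons induce rose in 13 of 36 cases and fell in 2 (1 without U replicate 2 or SCF replicate 2), with a median of 0.33. The guanylate-binding proteins Gbp3 and Gbp2 led, Gbp3 from 7.39, 7.63 and 7.31 to 8.92, 9.08 and 8.83 and Gbp2 from 8.79, 8.73 and 8.69 to 10.28, 10.14 and 9.94. The differences were 1.498 and 1.38 (adjusted p of 2.7e-06 and 3.5e-06), and Oasl2, an oligoadenylate synthetase-like protein, rose by 1.15. The immunoproteasome subunits Psmb8 and Psmb9 rose by 0.78 and 0.87. Isg15, a ubiquitin-like protein strongly induced by type I interferon, read 8.33, 7.99 and 8.62 in the U-titled arrays and 8.18, 8.14 and 7.94 in the SCF arrays (adjusted p = 0.33) and Rsad2, viperin, fell by 1.03.

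Among cytokines and growth factors 5 of 25 rose (3 without U replicate 2, U replicate 3 or SCF replicate 1) and 6 fell. Tnf rose from 6.46, 5.93 and 6.18 to 7.21, 7.59 and 7.65 (1.29, adjusted p = 6.4e-05), Il1b read 8.83, 8.38 and 8.62 in the U-titled arrays and 8.59, 8.91 and 8.39 in the SCF arrays (adjusted p = 0.94), and Pdgfb, a growth factor that platelets carry, fell by 1.73. Of 37 cytokine receptors 5 rose (3 without U replicate 3) and 7 fell. These are 13.5% and 18.9%, beside 14.1% and 13.7% over all genes. Beside Il1r2, the shared β chain of the interleukin-3 and GM-CSF receptors, Csf2rb, rose by 1.05, a call lost without U replicate 3 (adjusted p = 0.058), with dimmer probes at 0.59 and 0.18. Il7r fell by 1.07, with dimmer probes at -0.17 and -0.11, and Il6ra by 1.05. Chemokine genes rose in 4 of 27 cases and fell in 3, in 8 and 1 without SCF replicate 3, and 1 fell without U replicate 3. Besides Ccl17 these included the neutrophil attractant Cxcl3 (1.24) and lymphotactin, Xcl1 (1.13). In the Toll and NOD list 5 of 29 rose (3 without U replicate 2 or U replicate 3, 2 without SCF replicate 2), among them the regulator Nfkbiz (1.10). In it 3 fell (1 without U replicate 2 or SCF replicate 3, 5 without SCF replicate 2), with the fungal receptor Clec7a lowest (-1.37). Of 26 Fc receptor and partner genes 4 rose (2 without SCF replicate 2) and 5 fell (3 without SCF replicate 3). Higher and lower shares were 14.8% and 11.1% for chemokine genes and 17.2% and 10.3% for the Toll and NOD list. For the Fc receptor list they were 15.4% and 19.2%, all of them near the shares over all genes. Tlr4, the lipopolysaccharide receptor, read 7.80, 7.86 and 7.79 in the U-titled arrays and 7.78, 8.00 and 6.89 in the SCF arrays (adjusted p = 0.44).

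Of 26 integrins and partners 10 fell and 3 rose, and several of those that fell are platelet genes such as Itga2b and Itgb3. Itgb5, an integrin chain of macrophages and other cells, fell by 1.59 and the laminin-binding Itga6 by 1.45, while Jaml, an adhesion molecule of granulocytes and monocytes, rose by 1.35. Spon2, a matrix protein, was among the 12 largest decreases, from 8.28, 8.73 and 8.45 to 5.52, 5.38 and 5.73 (-2.95, adjusted p = 7.3e-07). In the eicosanoid list 7 of 19 fell and 2 rose (1 without SCF replicate 3), with Hpgd, which inactivates prostaglandins, at 6.76, 6.87 and 6.83 in the U-titled arrays and 5.02, 5.05 and 4.88 in the SCF arrays (-1.84, adjusted p = 2e-06) and the prostacyclin receptor Ptgir 1.24 lower.

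In the ATF4 list 9 of 31 fell and 3 rose (5 without U replicate 3). The 3 were Phgdh, Psat1 (0.65) and Shmt2 (0.81), enzymes of serine and one-carbon metabolism counted above. Atf3, an early stress factor, read 8.42, 8.46 and 8.41 in the U-titled arrays and 6.84, 7.19 and 6.10 in the SCF arrays (-1.72, adjusted p = 3e-05), Ppp1r15a, which restarts translation after stress, fell by 1.15, Ddit3, which encodes CHOP, by 0.79 and the glutathione-degrading Chac1 by 0.95. Atf4 read 11.34, 11.31 and 11.52 in the U-titled arrays and 11.25, 10.94 and 11.02 in the SCF arrays. Its target Asns, asparagine synthetase, read 11.28, 11.20 and 11.00 in the U-titled arrays and 11.01, 11.29 and 11.06 in the SCF arrays. Neither passed (adjusted p of 0.14 and 0.85). In the antioxidant list 10 of 42 fell and 1 rose (2 without U replicate 3), with Hmox1 and Srxn1, sulfiredoxin (-1.54), furthest down.

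The BCL2 and death genes fell in 6 of 24 cases and rose in 3. Beside Bcl2l1 these included the survival gene Mcl1 (-0.67) and the p53 target Bbc3 (-0.85, adjusted p = 0.059 without SCF replicate 2), which encodes the killer PUMA. Bcl2 read 6.74, 7.02 and 7.45 in the U-titled arrays and 6.98, 7.01 and 7.12 in the SCF arrays and did not pass (adjusted p = 0.93). Of 23 p53 targets 3 rose and 4 fell (2 without U replicate 2 or SCF replicate 3). Mdm2, the ubiquitin ligase for p53, fell from 11.46, 11.22 and 11.15 to 10.87, 10.71 and 10.64 (-0.53, adjusted p = 0.0038). In the transporter list 7 of 25 fell, Slc6a4 among them, and the neutral amino acid carrier Slc1a4 fell by 1.08. In that list 2 rose, of which 1 did so without U replicate 1, 2 without SCF replicate 2 and 0 without each of the other arrays. Of 39 chromatin genes 7 rose and 2 fell, which is 17.9% and 5.13%. Rbbp7, a histone-binding subunit of several repressor complexes, rose most, from 5.38, 7.89 and 6.94 to 8.87, 8.24 and 8.66 (1.85 ± 0.46, adjusted p = 0.0065). Dnmt3b, a de novo DNA methyltransferase, rose from 9.13, 9.15 and 9.10 to 9.86, 9.88 and 10.00 (0.79, adjusted p = 0.00022), and Hdac5, a histone deacetylase, fell by 1.38.

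The C-titled CD117+ arrays, the other set without SCF, give the same SCF arrays a second reference. The authors' processed values follow 1 distribution in the U-titled and SCF arrays and another in the C-titled arrays, so set and treatment cannot be told apart in this second comparison. Both comparisons share the SCF arrays. Against the C-titled arrays 2823 genes were higher with SCF (24.6%) and 2514 lower (21.9%). Scaling arrays to equal medians in place of quantile normalization shifted the median difference from -0.01 to 0.18, and the counts to 3874 and 1375. Against the U-titled arrays the same change moved the median from 0.02 to 0.09.

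Set side by side, the 2 references gave different values for several lists. For the 55 ribosome biogenesis genes the median was 0.69 against the U-titled arrays and -0.08 against the C-titled arrays, or 0.12 with median scaling, with 15 higher and 9 lower. Myc had a mean of 7.74 in the C-titled arrays, 5.20 in the U-titled arrays and 7.28 with SCF, so SCF cells were above one reference and near the other (difference from the C-titled set -0.45, adjusted p = 0.19). Megakaryocyte genes, of which 23 of 25 were lower against the U-titled arrays, were higher in 15 and lower in 3 against the C-titled arrays. Tubb1 was among the 3, with a C-titled mean of 11.47 and an SCF mean of 9.51. The U-titled mean of Vwf was 13.20, the SCF mean 11.28 and the C-titled mean 9.79. Retnla averaged 11.79, 7.47 and 4.35 in that order, Igf1 10.23, 6.65 and 5.75, and Hmox1 11.62, 9.94 and 7.51. For these 4 genes the SCF mean thus lay between the U-titled arrays above and the C-titled arrays below. Of the 30 macrophage genes 21 were higher and 4 lower against the C-titled arrays.

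For other genes the SCF mean lay outside both references. Prg2 averaged 14.10 in the C-titled arrays, 13.46 in the U-titled arrays and 10.54 with SCF, and 6 of 9 eosinophil genes were lower and 1 higher against the C-titled set. Slc4a1 averaged 11.26, 8.24 and 6.72 in that order, and 17 of 20 red cell genes were lower and 0 higher. Pdpn averaged 4.50, 4.88 and 8.18, Il1r2 4.28, 4.87 and 7.80, and Ccl17 4.43, 4.59 and 6.99, so these 3 were near the background limit in both sets without SCF and above it in all SCF arrays. The type IV collagens averaged 5.46 (Col4a1) and 5.76 (Col4a2) in the C-titled set. Kit averaged 11.50 in the C-titled arrays, 10.20 in the U-titled and 10.69 with SCF, below the C-titled set (-0.81, adjusted p = 0.00031).

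**Figure D5:**
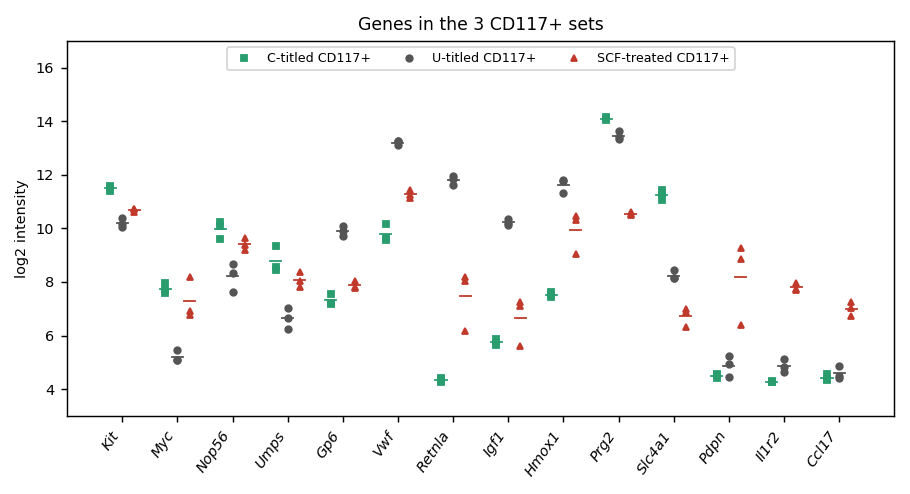
Log2 intensity (y axis) of 14 genes in each C-titled (green squares), U-titled (grey circles) and SCF-treated (red triangles) CD117+ array, with bars at the group means. Retnla, Igf1, Hmox1 and Vwf lie highest in the U-titled arrays, Prg2 and Slc4a1 lowest with SCF, and Pdpn, Il1r2 and Ccl17 highest with SCF.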

How the data were processed

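RNA of mouse bone marrow cells was labelled as cRNA and hybridised to 1-colour Illumina arrays. The deposited table holds the scanner intensity and the detection p-value of 45281 probes on 12 arrays, with no background correction or normalization by the authors, and a table of intensities that the authors quantile normalized served as an alternative. The methods describe sequencing and counts for expression, which these values are not. The scanner software and the authors' normalization tool were not named in the sources read.

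Intensities were background corrected, quantile normalized and put on a log2 scale with neqc (offset 16). The filter kept 20614 probes detected (p below 0.05) on 3 or more of the 12 arrays, of which 17712 had 1 gene symbol, and the brightest probe stood for each of 11472 genes. Among 2902 kept probes without a symbol 600 changed with SCF. Of the genes tested, 365 were detected on 0 of the 6 arrays compared. The 4 groups were fitted together (limma 3.58.1 in R 4.3.3, 8 residual degrees of freedom), with Benjamini-Hochberg adjustment over all genes. Simulated data of 11472 genes for SCF against U-titled had 200 changed genes and independent normal noise. Of genes changed by 0.5, 1 and 2 on the log2 scale, 23.5%, 83.3% and 100% were recovered, and 11 of 148 calls were false. More genes than 200 were called in the real comparison, so these rates may not carry over to it. Where a group was undetected, the fold is a bound: the mean of the bright group against the lowest signal above background.

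Members and the 57 gene lists (2020 members, 1857 with a probe, 1673 tested) were chosen with earlier results of these data known, so lists are given as counts and medians with no test. Genes were named by a rule: Kit and the 12 largest changes each way. In each list it took up to 3 called genes in the leading direction and 1 in the other. Apart from Kit, the rule took genes without overlap of arrays, so lack of overlap in them follows from the choice. Of the 270 named genes 67 were added after their values were seen, the defining cell type markers included. Alternatives covered scaling, background, filters, probes, the arrays fitted, array weights, a fold threshold, a replicate block and each array left out. Promoters came from RefSeq (GRCm38.p6). Some DNA repair results are not reported here.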

Additional observations from a re-analysis of the deposited data

How the results depend on the processing

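Against the U-titled arrays, leaving out 1 array at a time gave 1202 to 1538 higher and 1220 to 1493 lower genes, and against the C-titled arrays 2468 to 2838 higher and 2108 to 2512 lower. A test against a fold of 1.5 left 89 higher and 297 lower genes against the U-titled arrays, and 1032 and 659 against the C-titled arrays. Scaling to equal medians lowered the count of lower genes against the C-titled arrays to 1375, and the cause was not tested. No other setting moved a count of calls by more than 1.5 times: against the U-titled arrays they ranged from 1363 (no filter on dim probes) to 1932 (array weights) higher and from 1247 (median scaling) to 1791 (array weights) lower, with 1890 higher beside the 1247. No gene called against the U-titled arrays in the main fit changed sign under another setting that tested it, apart from 7 when all detected probes of a gene were averaged. Xist, the RNA of the inactive X chromosome, went from 0.42 to -0.013 under that setting. Its dimmer probes went both ways, at 0.87 (adjusted p = 0.00022), -0.75 (adjusted p = 0.015) and -0.60 (adjusted p = 0.079). Of 247 named genes that were called, 7 to 15 lost their call with 1 array left out and 144 under the fold threshold. Same-numbered U-titled and SCF arrays deviated together hardly at all (correlations 0.04, -0.00 and 0.05), so the numbers were not taken as pairs, and with a replicate block over the 6 arrays 1459 genes were higher and 1536 lower. Signals near background limit what these arrays can resolve, as do 3 arrays a side.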
